A study of Arabidopsis thaliana with 16 samples.

Results

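The genes described here lie on both sides of RPN10 (AT4G38630) on chromosome 4 of Arabidopsis thaliana. They are all rows with TAIR identifiers from AT4G37500 to AT4G39900 that had at least 10 counts in at least 2 of the 16 files. That range held 267 rows, of which 2 were left out by the rule and 50 were under the minimum, 7 of them with 0 counts in all files. The rows under the minimum reached at most 19 counts in any file. There remained 215 members of the 33602 genes in the files, 206 of them protein-coding, over 884 kb (chr4:17626104-18510555 in TAIR10.1, the RefSeq copy of the genome used for coordinates). The fit kept 21205 genes, among them each of the 215 members.

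RNA was sequenced from whole seedlings 5 days old, grown in liquid MS-based medium with 1% sucrose under constant light. There were 2 libraries of rpn10-1 and 2 of rpn12a-1, untreated mutants in which an exon trap disrupts the named gene. Seedlings of Col-0, the wild type, gave 4 libraries after 3 h in 100 µM MG132, 4 after 24 h in 100 µM MG132 and 4 untreated. Untreated seedlings were harvested at once at 5 days, and no group was kept in fresh medium without MG132, so the drug, the fresh medium and the added time cannot be told apart. The labels give neither the accession in which the mutants arose nor the cultures behind the replicates. The spread that p-values rest on is therefore that between libraries and may be technical. Replicates 3 and 4 of the Col-0 groups and the rpn12a-1 libraries carry a note on technical replicates in their labels, 8 of 16 in all. These are called the libraries with the note, and the fit had a term for that library set.

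The 26S proteasome degrades proteins marked with ubiquitin. Its core particle cuts proteins, and its regulatory particle binds, unfolds and feeds them in. RPN10 is a subunit of the regulatory particle that binds ubiquitin chains, RPN12A is a subunit of its lid, and MG132 is a peptide aldehyde that blocks the active sites of the core. Genes that lie side by side on a chromosome arm share no function as a rule. RPN10 stands here among enzymes of cell wall, lipid and sugar metabolism, transcription factors and tandem families such as the small auxin-up RNA (SAUR) genes.

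The spacing around RPN10 is tight, which is why its upstream sequence is shown. RPN10 (chr4:18056988-18059598) and AT4G38640 (chr4:18059614-18062347), a choline transporter-like gene, are both on the minus strand, and RefSeq places the 3′ end of AT4G38640 15 bases before the annotated start of RPN10. The sequence between them, chr4:18059599-18059613 on the minus strand, is given 5′ to 3′.
AT4G38640 to RPN10: cattagggtctaaaa
HCC2 (AT4G39740, chr4:18435293-18437258, minus strand) was called higher in both mutants and at both times of MG132. Its 250 bases before the annotated start (chr4:18437259-18437508, minus strand) are shown with each GCCCA, the reverse complement of TGGGC, in capitals. TGGGC is the core of the plant site II element.
HCC2 upstream: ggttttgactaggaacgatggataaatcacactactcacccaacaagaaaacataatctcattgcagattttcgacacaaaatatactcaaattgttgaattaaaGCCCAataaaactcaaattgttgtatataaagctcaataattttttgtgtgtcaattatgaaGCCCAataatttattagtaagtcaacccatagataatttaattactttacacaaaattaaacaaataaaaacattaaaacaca
TGGGC on either strand, a motif chosen after the values were seen, was in the 250 bases upstream of 59 of 215 members (27.4%) and of 5326 of 21025 tested genes with such a window (25.3%). The window of RPN10, most of which lies inside AT4G38640, held no match.

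Levels are given as CPM, the deposited counts scaled to a common library size with TMM factors. Total counts per library were 6646134 to 21762565. RPN12A (AT1G64520) was at 52.0 and 42.9 CPM in rpn12a-1, against 92.1, 102, 73.6 and 74.3 CPM in untreated Col-0. The rpn10-1 libraries were less alike than any other pair: chi-square per degree of freedom was 73.7 between their counts, 8.17 to 17.2 within library sets elsewhere and 23.5 to 62.6 across sets. Summed over 5 genes each, seed storage markers were at 0.753 to 44.4 CPM in rpn10-1, against 2.31 to 3.9 CPM in untreated Col-0. Root markers were at 4.18 to 51.7 CPM after 24 h of MG132 and 34.2 to 107 CPM in untreated Col-0, with all 5 of each list detected in both groups. The 2 phloem markers summed to 59.4 to 67.8 CPM in rpn10-1 and 62.5 to 98.3 CPM at 3 h, both below the 109 to 128 CPM of untreated Col-0. In such bulk samples fewer cells of a type and less RNA per cell cannot be told apart, and the part of these differences in the results was not tested.

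RPN10 itself separated rpn10-1 and untreated Col-0 from each other and from the other groups, while rpn12a-1 and both MG132 groups overlapped. It had 21.4 and 22.2 CPM in rpn10-1 and 329 and 340 CPM in rpn12a-1, against 126, 136, 101 and 98.6 CPM in untreated Col-0. MG132 libraries had 296, 296, 354 and 300 CPM at 3 h and 283, 304, 301 and 349 CPM at 24 h. The rpn10-1 libraries were thus the only ones below untreated Col-0, and all libraries of the other groups were above it. The log2 fold change was -2.42 (SE 0.18) in rpn10-1 with an adjusted p of 3.4e-07 by edgeR's quasi-likelihood test, which is used throughout with Benjamini-Hochberg adjustment over all 21205 genes. It was 1.55 (SE 0.16, adjusted p = 1.3e-05) in rpn12a-1, 1.44 (SE 0.13, adjusted p = 1.4e-06) at 3 h and 1.43 (SE 0.13, adjusted p = 1.1e-06) at 24 h. Set directly against rpn12a-1, rpn10-1 was lower by a log2 fold change of -3.97 (SE 0.22, adjusted p = 5.5e-08). The labels do not say where in the gene the exon trap sits, so the reads left in rpn10-1 could come from either side of it.

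The genes that touch RPN10 moved far less. The choline transporter-like gene AT4G38640, whose end lies next to the start of RPN10, had 29.8 and 36.8 CPM in rpn10-1, against 45.8, 38.4, 39.8 and 43.2 CPM in untreated Col-0. The ranges did not overlap, but its log2 fold change of -0.35 (SE 0.12) missed the threshold (adjusted p = 0.053). In rpn12a-1 it was at 39.9 and 37.4 CPM, and its log2 fold change was 0.04 (SE 0.1) at 3 h and -0.09 (SE 0.09) at 24 h, none of which passed the test. On the other side, MYB4, a repressor of phenylpropanoid genes, had 23.4 and 31.7 CPM in rpn10-1, around the 26.7, 27.3, 25.1 and 23.0 CPM of untreated Col-0. Among the comparisons with untreated Col-0, MYB4 was called only at 3 h of MG132, where it fell to 20.02, 16.8, 16.1 and 13.1 CPM (log2 fold change -0.63, SE 0.14, adjusted p = 0.0056). At 24 h it had 18.7 to 22.5 CPM. Next in line, KAK, a HECT ubiquitin ligase that limits trichome branching, had 180 and 229 CPM in rpn10-1, against 193, 134, 205 and 196 CPM in untreated Col-0, and was called in none of the comparisons. At 3 h it had 147 and 147 CPM in libraries without the note and 346 and 327 CPM in libraries with it. Within the libraries with the note its 3 h log2 fold change was 0.76 (adjusted p = 0.0077), and within those without it -0.16 (adjusted p = 0.72).

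**Figure D1:**
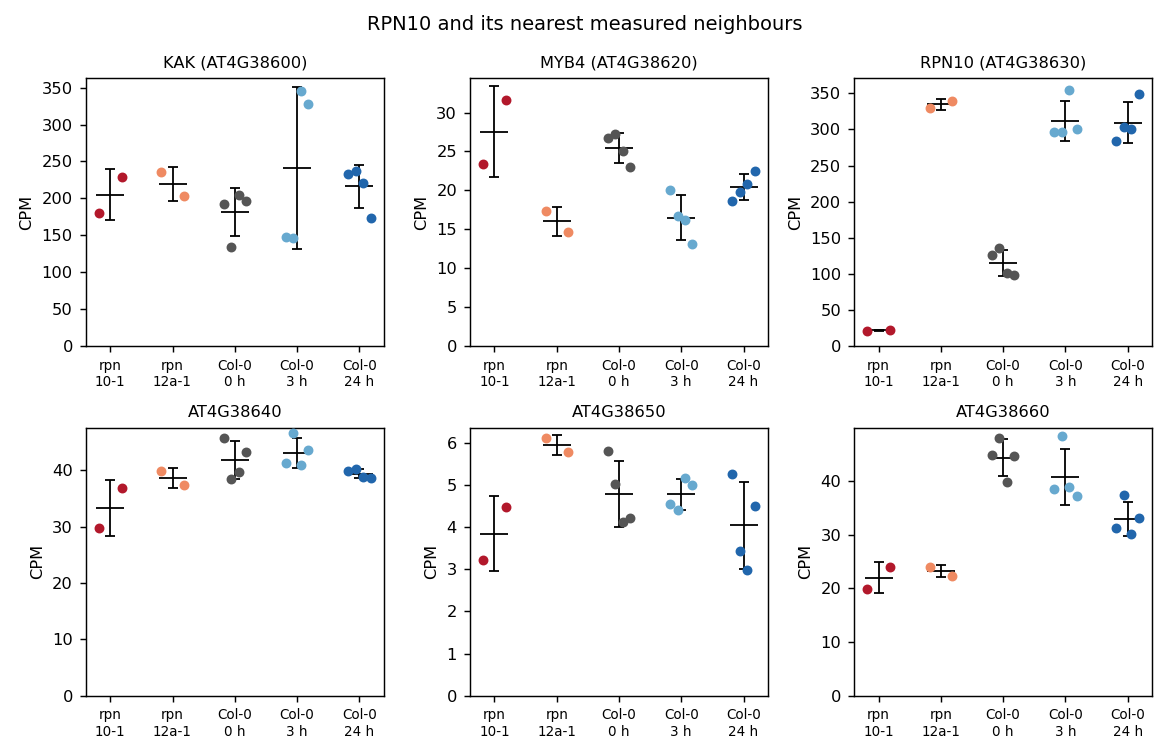
Level in CPM of RPN10 and 5 nearby members in each library. Points are libraries, and bars are the mean and SD of 2 (mutants) or 4 (Col-0) libraries; Col-0 is shown at 0, 3 and 24 h of MG132. RPN10 in rpn10-1 lies at 21.4 and 22.2 CPM, apart from every other group, while AT4G38640 stays between 29.8 and 46.6 CPM in all 16 libraries.

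Among the 8 members on each side of RPN10, 3 of 16 were called in rpn10-1, 1 of 16 in rpn12a-1, 7 of 16 at 3 h and 6 of 16 at 24 h of MG132. Over all genes tested the shares called were 23.0% in rpn10-1, 4.9% in rpn12a-1, 17.9% at 3 h and 26.4% at 24 h. The other gene that borders AT4G38640, the glycosyl hydrolase gene AT4G38650, had 3.22 and 4.47 CPM in rpn10-1, against 4.12 to 5.81 CPM in untreated Col-0, and was called in none of the comparisons. In rpn10-1 the called neighbours were FP6, a farnesylated protein, at 8.9 and 9.59 CPM against 17.5, 13.1, 16.4 and 16.3 CPM in untreated Col-0, and the thaumatin-like gene AT4G38660. The third, the glycine-rich protein gene AT4G38710, was higher by a log2 fold change of 0.48 (SE 0.16, adjusted p = 0.044) with overlapping libraries. The FP6 call was lost without either rpn10-1 library or without untreated Col-0 replicate 1 or 2. The AT4G38710 call was lost without the set term (adjusted p = 0.52), without rpn10-1 replicate 2 (0.29) and without any one untreated library. AT4G38660 (chr4:18066030-18068293) had 19.9 and 24.0 CPM in rpn10-1 and 24.1 and 22.4 CPM in rpn12a-1, against 44.9, 48.1, 39.8 and 44.7 CPM in untreated Col-0. Both mutants lay below every untreated library (log2 fold change -1.09, SE 0.14, adjusted p = 8.4e-05 in rpn10-1 and -0.86, SE 0.14, adjusted p = 0.0011 in rpn12a-1). The thaumatin-like gene beside it, AT4G38670, had 8.69 and 10.4 CPM in rpn10-1 and 9.53 and 8.14 CPM in rpn12a-1, against 9.37, 11.9, 8.61 and 9.61 CPM in untreated Col-0, and was called in neither. At 24 h of MG132 both thaumatin-like genes fell, AT4G38660 by a log2 fold change of -0.43 (SE 0.1, adjusted p = 0.0078) and AT4G38670 by -0.56 (SE 0.16, adjusted p = 0.017). The AT4G38670 call was lost without untreated replicate 2 or 24 h replicate 2 or 3, at adjusted p of 0.077, 0.066 and 0.059. AT4G38690 (PLC-like phosphodiesterase) and AT4G38700 (dirigent-like) fell at both times of MG132. AT4G38690 had 17.5, 19.2, 27.1 and 25.1 CPM at 3 h and 17.6, 15.8, 20.9 and 25.8 CPM at 24 h, against 27.7, 35.7, 41.5 and 42.0 CPM untreated. AT4G38700 had 0.827, 0.994, 1.16 and 1.02 CPM at 3 h and 1.07, 0.634, 1.14 and 0.492 CPM at 24 h, against 1.98, 2.36, 1.74 and 2.56 CPM untreated, and its 3 h call was lost without untreated replicate 2 or 4 or 3 h replicate 1. The cold-shock domain gene GRP2, between AT4G38670 and AT4G38690, was called in none of the comparisons.

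Over the whole interval in rpn10-1, 39 of 215 members (18.1%) were called at an adjusted p under 0.05, 17 higher and 22 lower, against 23.0% of all genes tested (11.4% higher and 11.5% lower). Without the low-count filter the order of the shares turned, with 46 members called (21.4%) against 19.8% of all genes. That fit held 30022 genes, with many rows of very low counts, while the members kept their count minimum. The 2 shares there rest on unlike sets. Of the members, 20 (9.3%) were called and changed at least 2-fold, against 12.1% of all genes, and the median absolute log2 fold change was 0.32, against 0.39 over all genes. The libraries of rpn10-1 and untreated Col-0 did not overlap for 79 members (36.7%), against 38.2% of all genes. AT4G37620, which became a member through untreated Col-0 as described below, was kept among the members counted in both mutants. Of the 39 called members, 29 had an uncalled member on both sides (74.4%, against 61.1% of called genes on chromosome 4), and no more than 2 called members stood in a row. In blocks of 25 members in id order, the block from AT4G38580 to AT4G38890 that holds RPN10 had 10 called members, RPN10 among them. The other full blocks had 2 to 6. Of the 25 members on each side of RPN10, RPN10 itself left out, 11 of 50 (22.0%) were called. In blocks of 100 tested genes along chromosome 4, 11 to 35 were called, with a median of 20.5, and the block that holds RPN10 (AT4G37890 to AT4G38970) had 18. Without a term for the library set, 25 members were called. Without rpn10-1 replicate 1 the count was 18 and without untreated Col-0 replicate 2 it was 24.

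In rpn12a-1, 14 of 215 members (6.51%) were called, 7 higher and 7 lower, against 4.9% of all genes (2.64% higher and 2.26% lower). Of these, 7 (3.26%) changed at least 2-fold, against 3.43% of all genes. Libraries did not overlap for 82 members (38.1%), against 33.3% of all genes. The median absolute log2 fold change was 0.24, against 0.22 over all genes. Blocks of 25 held 0 to 3 called members, and the block that holds RPN10 had 2. Of the 14, 11 had an uncalled member on both sides (78.6%, against 79.1% of called genes on chromosome 4), and the other 3 stood in a row: PLAT1 (AT4G39730), HCC2 and TPPH. PLAT1, a protein of the PLAT domain family, had 202 and 176 CPM in rpn12a-1, against 190, 224, 117 and 107 CPM in untreated Col-0, so the libraries overlapped (log2 fold change 0.61, SE 0.17, adjusted p = 0.049). Its call was lost without the set term, without either rpn12a-1 library and without untreated Col-0 replicate 1, 3 or 4. With a block for the replicate number in place of the set, its log2 fold change was -0.0 and it was not called. HCC2 was higher and TPPH lower, and their values are given below. The count was 5 without rpn12a-1 replicate 1, 4 without rpn12a-1 replicate 2, and 9 without untreated Col-0 replicate 2 or replicate 4. Because the mutants were set against the same untreated libraries, their values are given side by side below and no overlap is counted.

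**Figure D2:**
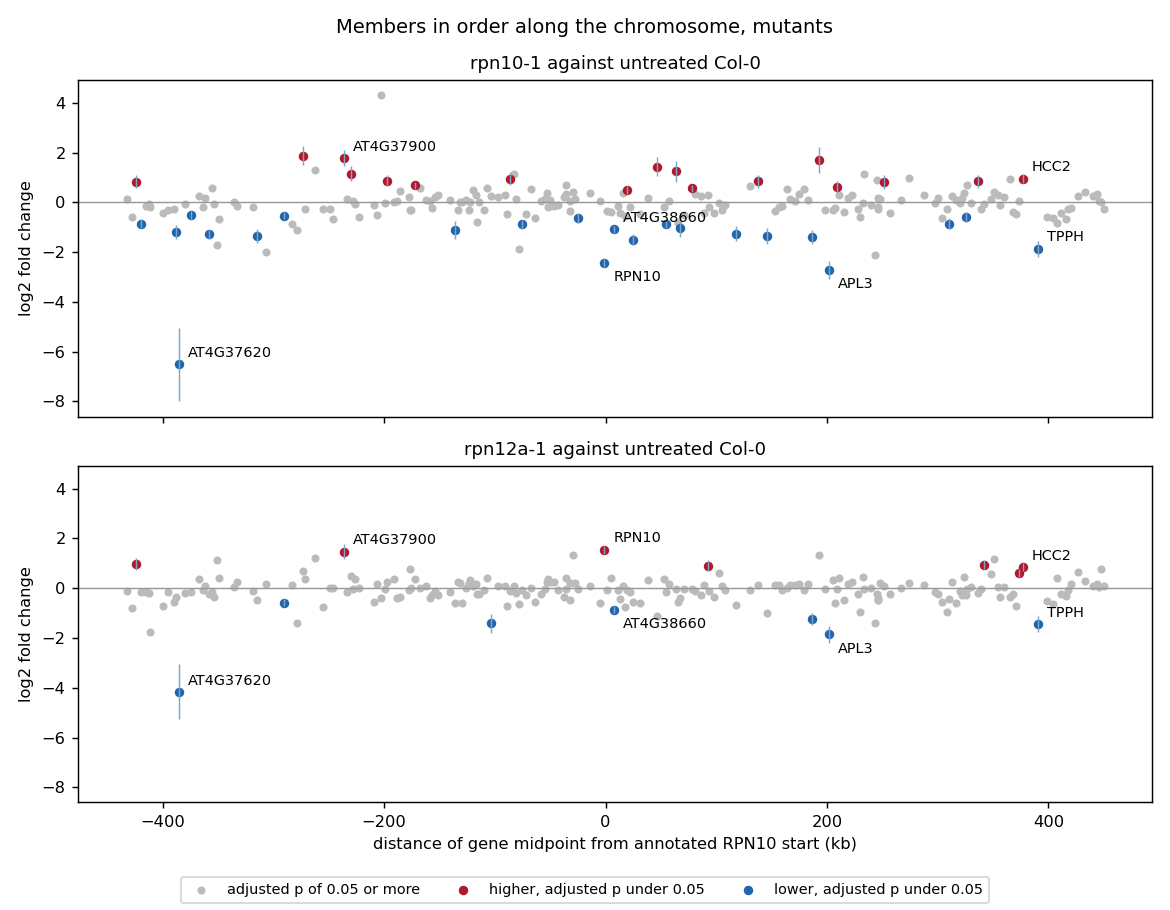
Log2 fold change of the 215 members in rpn10-1 (top) and rpn12a-1 (bottom) against untreated Col-0, by distance of the gene's midpoint from the annotated start of RPN10 in kb. Red and blue points passed an adjusted p of 0.05, with bars for the SE, and grey points did not; AT4G37620 had 0 or 1 count in the mutants, so its fitted value depends on the prior count. Of the 39 called members in rpn10-1 and 14 in rpn12a-1, 29 and 11 have a grey point on both sides in id order.

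Members that were on in one group and off in the other were sought. They had to have means at least 8-fold apart, no overlap of libraries and a higher mean that reached 0.5 CPM. There was 1 such member in rpn10-1 (2.3% of all genes) and 1 in rpn12a-1 (1.09% of all genes), and in both it was AT4G37620, annotated as a pseudogene (chr4:17674191-17674589). It had 0 and 0 CPM in rpn10-1 and 0 and 0.047 CPM in rpn12a-1, against 1.12, 1.44, 0.145 and 0.484 CPM in untreated Col-0. Summed over libraries these were 0 counts in rpn10-1, 1 count in rpn12a-1 and 40 counts in untreated Col-0, so the untreated libraries themselves varied widely. AT4G37620 reached the minimum of 10 counts only in untreated Col-0 replicates 1 and 2 (17 and 14 counts) and had at most 9 counts in any other file. It became a member through the group in which it is high, so its difference is a description with no test. With 3 counts for the group taken as the floor, it was at least 6.35-fold lower in rpn10-1. In rpn12a-1 the ratio was 0.0348 with an exact 95% counting interval of 0.00086 to 0.205. MG132 libraries had 0.295, 0.284, 0.333 and 0.464 CPM at 3 h and 0.214, 0.453, 0.571 and 0.562 CPM at 24 h, so the transcript was found in every Col-0 library.

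Of the genes beside AT4G37620, CYCD5;1 was called in neither mutant and BT5 was called lower in rpn10-1. CYCD5;1 (AT4G37630), a D-type cyclin on its far side from BT5, had 5.96 and 7.54 CPM in rpn10-1 and 5.18 and 5.46 CPM in rpn12a-1, against 6.6, 7.58, 5.71 and 6.43 CPM in untreated Col-0. BT5 (AT4G37610), a BTB and TAZ domain protein, had 8.9 and 9.4 CPM in rpn10-1 and 18.2 and 18.1 CPM in rpn12a-1, against 25.5, 27.9, 17.4 and 16.4 CPM in untreated Col-0. It was called in rpn10-1 (log2 fold change -1.2, SE 0.29, adjusted p = 0.0092, and 0.076 without rpn10-1 replicate 1) and not in rpn12a-1 (-0.34, SE 0.28, adjusted p = 0.63). The difference between the mutants was not called (adjusted p = 0.16). AT4G37608, which shares 151 bases with BT5 on the opposite strand, was called in neither mutant.

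Several members were lower in both mutants. APL3 (AT4G39210, chr4:18259547-18263468), a large subunit of ADP-glucose pyrophosphorylase, which makes the glucose donor for starch, had 4.17 and 10.1 CPM in rpn10-1 and 7.88 and 10.5 CPM in rpn12a-1. Untreated Col-0 had 43.8, 43.0, 42.7 and 28.4 CPM, so every mutant library lay below every untreated one. The log2 fold change was -2.72 (SE 0.35, adjusted p = 8.8e-05) in rpn10-1 and -1.86 (SE 0.33, adjusted p = 0.0027) in rpn12a-1, the last at an adjusted p of 0.063 without rpn12a-1 replicate 1. Under MG132 it had 22.0 to 29.4 CPM at 3 h and 19.9 to 51.8 CPM at 24 h and was not called. TPPH (AT4G39770), a trehalose-6-phosphate phosphatase, which removes the sugar signal trehalose-6-phosphate, had 5.96 and 2.7 CPM in rpn10-1 and 6.29 and 7.29 CPM in rpn12a-1, against 19.3, 16.9, 14.9 and 17.2 CPM in untreated Col-0. Its log2 fold change was -1.86 (SE 0.32, adjusted p = 0.0011) in rpn10-1 and -1.44 (SE 0.31, adjusted p = 0.012) in rpn12a-1. The rpn12a-1 call was lost without either mutant library, at adjusted p of 0.14 and 0.092. The neighbours of APL3 were not called in either mutant. The ribosomal protein S25 gene AT4G39200 had 284 and 306 CPM in rpn10-1 and 311 and 297 CPM in rpn12a-1, against 359, 405, 293 and 310 CPM in untreated Col-0, and ATRER1A had 25.3 to 34.2 CPM over the 4 mutant libraries.

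SEC14 (AT4G39180), a phosphatidylinositol transfer protein, had 1.23 and 1.12 CPM in rpn10-1 and 1.53 and 1.74 CPM in rpn12a-1, against 2.57, 2.87, 4.56 and 4.15 CPM in untreated Col-0. It was called in rpn10-1 (-1.39, SE 0.28, adjusted p = 0.0031) and in rpn12a-1 (-1.24, SE 0.25, adjusted p = 0.0078, lost without either mutant library at 0.11 and 0.071). The homeodomain-leucine zipper gene HAT22 had 20.3 and 19.9 CPM in rpn10-1 and 18.8 and 19.9 CPM in rpn12a-1, against 27.2 to 30.4 CPM in untreated Col-0, a fall called in both at log2 fold changes of -0.53 (SE 0.14, adjusted p = 0.016) and -0.58 (SE 0.14, adjusted p = 0.024). Both HAT22 calls were lost without either library of the mutant or without untreated Col-0 replicate 2, and the rpn12a-1 call also without replicate 3. SQE3, a squalene epoxidase of sterol synthesis, was at 10.5 and 23.2 CPM in rpn10-1, against 41.6, 50.2, 36.4 and 37.0 CPM in untreated Col-0 (-1.35, SE 0.29, adjusted p = 0.0048, and 0.068 without rpn10-1 replicate 1). It was at 31.1 and 25.9 CPM in rpn12a-1 and was not called there.

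Some falls in rpn10-1 concern genes whose level differed between library sets. HHP4, a heptahelical protein, had 15.7 and 16.6 CPM in rpn10-1, against 38.9 and 48.3 CPM in the untreated Col-0 libraries of the same set and 21.5 and 17.6 CPM in those with the note. ROC1, a cyclophilin that turns peptide bonds at proline, had 128 and 118 CPM in rpn10-1, against 380 and 396 CPM in the same set and 203 and 179 CPM in libraries with the note. Every untreated library was above rpn10-1 for both genes, and HHP4 was only just so in the libraries with the note. Within the same set the log2 fold change was -1.45 (adjusted p = 0.00054) for HHP4 and -1.68 (adjusted p = 0.00034) for ROC1. The B-box gene BZS1 had 3.22 and 3.72 CPM in rpn10-1, against 10.4 and 9.63 CPM in the same set and 5.5 and 4.5 CPM in libraries with the note. The HHP4 call was lost without the set term, and the BZS1 call (-1.35, SE 0.32, adjusted p = 0.008) was lost without it (0.069) and without rpn10-1 replicate 1 (0.079).

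Among the rises, AT4G37900 (chr4:17821482-17824748), annotated with a duplicated domain of unknown function, had 5.0 and 5.77 CPM in rpn10-1 and 5.0 and 5.74 CPM in rpn12a-1, against 1.91, 1.64, 1.88 and 1.52 CPM in untreated Col-0. Its log2 fold change was 1.77 (SE 0.32, adjusted p = 0.0014) in rpn10-1 and 1.47 (SE 0.31, adjusted p = 0.011) in rpn12a-1, the second at 0.12 without rpn12a-1 replicate 2 and 0.054 without untreated Col-0 replicate 4. HCC2, a relative of the yeast copper chaperone SCO1 of mitochondria, had 8.97 and 8.47 CPM in rpn10-1 and 7.29 and 6.68 CPM in rpn12a-1, against 4.09, 4.51, 4.12 and 4.01 CPM in untreated Col-0. Untreated libraries lay within a narrow band and all mutant libraries above it. The log2 fold change was 0.95 (SE 0.18, adjusted p = 0.0018) in rpn10-1 and 0.85 (SE 0.17, adjusted p = 0.0085) in rpn12a-1, the last at 0.096 without rpn12a-1 replicate 1. In rpn10-1 the uncharacterized gene AT4G37820 had 37.1 and 31.0 CPM, against 9.31, 6.05, 20.8 and 20.1 CPM in untreated Col-0 (1.88, SE 0.38, adjusted p = 0.0029, and 0.099 without the library set term). AT4G39190, annotated as nucleolar-like, had 8.49 and 7.63 CPM in rpn10-1, against 2.18, 1.44, 2.31 and 3.46 CPM in untreated Col-0 (1.71, SE 0.53, adjusted p = 0.031). This last call was lost without either rpn10-1 library and without untreated Col-0 replicate 1, 2 or 3. The MATE efflux gene AT4G38380 had 13.4 and 12.8 CPM in rpn10-1 and 7.29 and 6.73 CPM in rpn12a-1, against 7.13, 7.28, 5.93 and 8.37 CPM in untreated Col-0. It was called in rpn10-1 (0.95, SE 0.25, adjusted p = 0.014, and 0.089 without rpn10-1 replicate 1), while the difference from rpn12a-1 was not (adjusted p = 0.062). AT4G38020, of the SpoU tRNA and rRNA methyltransferases, had 24.7 and 16.02 CPM in rpn10-1, against 8.1 to 13.2 CPM in untreated Col-0, and its call (adjusted p = 0.0096) was lost without rpn10-1 replicate 1 (0.19). The class III peroxidase gene AT4G37530 had 18.3 and 20.3 CPM in rpn10-1 and 20.2 and 17.3 CPM in rpn12a-1, against 9.7, 8.71, 14.2 and 7.68 CPM in untreated Col-0. Both calls (adjusted p = 0.034 and 0.036) were lost without either mutant library and without untreated Col-0 replicate 1, 2 or 4.

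**Figure D3:**
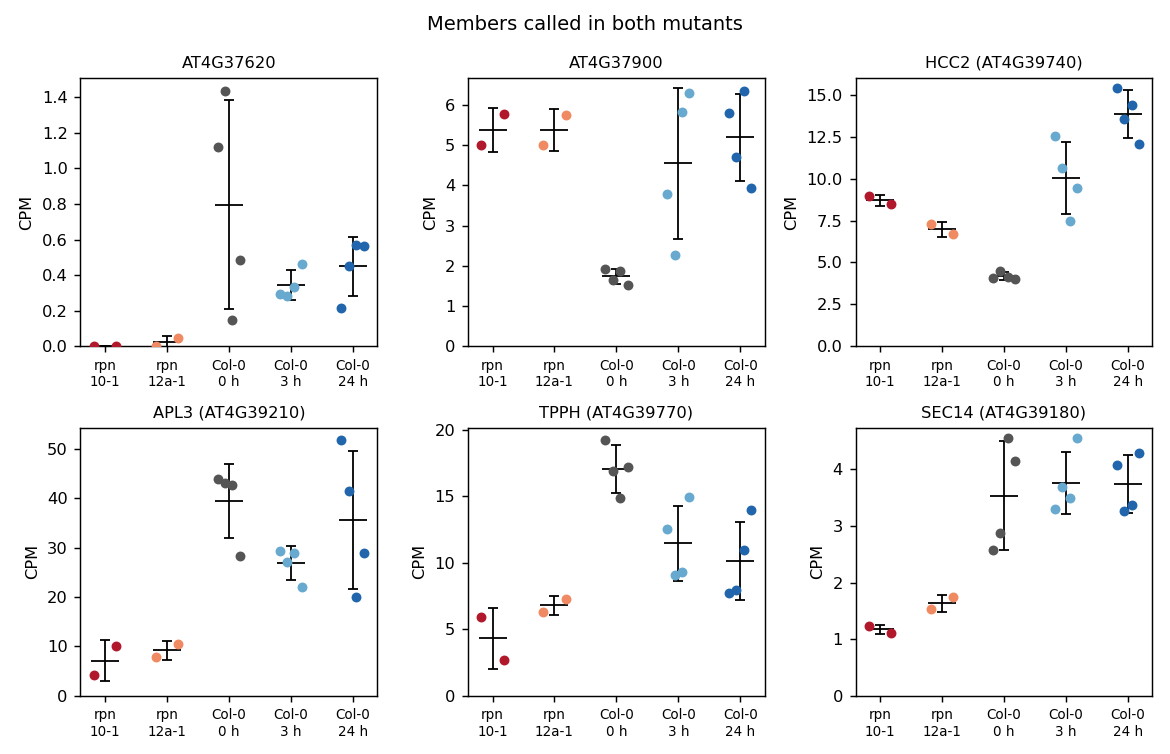
Level in CPM, in each library, of AT4G37620 and of AT4G37900, HCC2, APL3, TPPH and SEC14, the last named genes being called in both mutants. AT4G37620 became a member through untreated Col-0, so its difference is a description with no test. Points are libraries, and bars are the mean and SD of 2 (mutants) or 4 (Col-0) libraries, with Col-0 at 0, 3 and 24 h of MG132. APL3 lies at 4.17 to 10.5 CPM in the mutants, against 28.4 to 43.8 CPM in untreated Col-0, and HCC2 is above its untreated band of 4.01 to 4.51 CPM in all other groups.

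The direct comparison of rpn10-1 with rpn12a-1 called 8 of 215 members (3.72%), 2 higher and 6 lower in rpn10-1, against 6.31% of all genes (2.46% higher and 3.85% lower). Of these, 6 (2.79%) differed at least 2-fold, against 4.7% of all genes. RPN10 was the 1 on/off member (1.25% of all genes). GGT1, a gamma-glutamyl transpeptidase that breaks down glutathione outside the cell, had 22.4 and 20.5 CPM in rpn10-1, against 36.9 and 45.9 CPM in rpn12a-1 (log2 fold change -1.03, SE 0.22, adjusted p = 0.012, and 0.088 without rpn12a-1 replicate 2). Untreated Col-0 had 20.03 to 25.3 CPM, and GGT1 was called higher against it in rpn12a-1 (0.95, SE 0.17, adjusted p = 0.0024, and 0.06 without rpn12a-1 replicate 2). MTN1, which recycles methylthioadenosine from ethylene and polyamine synthesis, had 79.9 and 84.5 CPM in rpn10-1, against 135 and 122 CPM in rpn12a-1 (-0.75, SE 0.2, adjusted p = 0.038), a call lost without any one of these 4 libraries. Against untreated Col-0, MTN1 was called lower in rpn10-1, with log2 fold changes of -0.99 to -0.81 over the alternatives. AT4G38340, of the RWP-RK regulators, had 1.16 and 2.33 CPM in rpn10-1, against 0.765 and 0.565 CPM in rpn12a-1 (1.67, SE 0.47, adjusted p = 0.049). That call was lost without either rpn12a-1 library and without rpn10-1 replicate 2. AT4G38340 was also called lower in rpn12a-1 against untreated Col-0, without overlap of libraries. The other members called were HHP4, ROC1, AT4G37690 and AT4G38780. HHP4 averaged 16.2 ± 0.588 CPM in rpn10-1 and 18.4 ± 1.31 CPM in rpn12a-1 (SD, n = 2 each), 1.14-fold apart, where the fitted log2 difference was -1.05. ROC1 averaged 123 ± 6.89 CPM in rpn10-1 and 148 ± 7.19 CPM in rpn12a-1 (SD, n = 2 each), 1.21-fold apart, where the fitted log2 difference was -0.96. Without the set term neither was called (adjusted p = 0.85 and 0.75). The calls of ROC1 and AT4G37690 were lost without any one of the 4 mutant libraries, that of AT4G38780 without either rpn12a-1 library, and that of HHP4 without rpn12a-1 replicate 1. The mutants' libraries are in different sets, so this comparison takes the set difference from Col-0. Without the set term 3 members were called, 2 of them (RPN10 and GGT1) among these 8, and with the 4 mutant libraries alone 1 was.

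MG132 at 3 h called 52 of 215 members (24.2%), 24 higher and 28 lower, against 17.9% of all genes (8.68% higher and 9.24% lower). At 24 h it called 60 (27.9%), 23 higher and 37 lower, against 26.4% of all genes (12.6% higher and 13.8% lower). At least 2-fold changes were called in 17 members at 3 h (7.91%, against 6.4% of all genes) and in 16 at 24 h (7.44%, against 9.62%). Libraries did not overlap for 52 members at 3 h (24.2%, against 17.8% of all genes) and for 69 at 24 h (32.1%, against 26.1%). The 24 members called higher at 3 h include ELI3-2 and AT4G39360, and both are also among the 52 without overlap. Both reached 10 counts only in 3 h libraries and so became members through that group. The median absolute log2 fold change was 0.28 at 3 h and 0.3 at 24 h, against 0.26 and 0.31 over all genes. The block of 25 members that holds RPN10 had 12 called members at 3 h and 13 at 24 h, and the other full blocks had 3 to 8 at 3 h and 3 to 11 at 24 h. In blocks of 100 tested genes along chromosome 4, the block that holds RPN10 had 32 called at 3 h, the highest of 32 full blocks (11 to 32, median 18), and 34 at 24 h, where blocks had 17 to 35 (median 26.5). Within the libraries without the note alone, 14 members were called at 3 h. Within those with the note alone, 31 were called at 24 h, and without 24 h replicate 1 the count was 39.

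**Figure D4:**
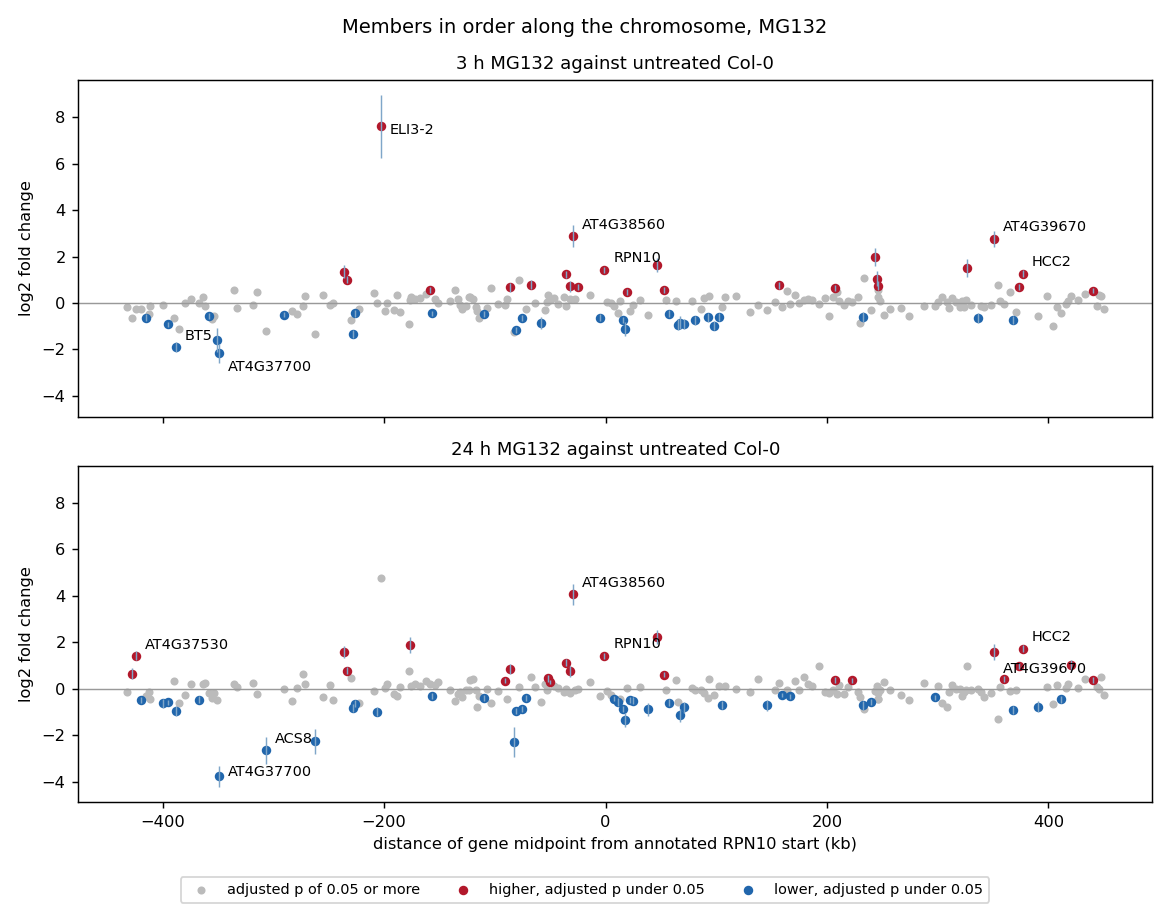
Log2 fold change of the 215 members after 3 h (top) and 24 h (bottom) of MG132 against untreated Col-0, by distance of the gene's midpoint from the annotated start of RPN10 in kb. Red and blue points passed an adjusted p of 0.05, with bars for the SE, and grey points did not; ELI3-2 had 0 counts in untreated Col-0, so its fitted value depends on the prior count. Changes reach 52 members at 3 h and 60 at 24 h, most of them under 2-fold.

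There was 1 on/off member at 3 h (0.948% of all genes), ELI3-2 (AT4G37990, chr4:17855637-17857878), an elicitor-activated aromatic alcohol dehydrogenase of the cinnamyl alcohol dehydrogenase (CAD) family. It had 2.07, 0.284, 3.99 and 0.742 CPM at 3 h, and untreated Col-0 had no count in any of its 4 libraries. The sums were 69 counts at 3 h and 0 in untreated Col-0, at least 30-fold higher at 3 h with 3 counts for the group as the floor. It reached 10 counts only in 3 h replicates 1 and 3 (35 and 24 counts), with at most 9 in any other file, and so became a member through the 3 h group; the difference is a description with no test. At 24 h it had 0.107, 0.091, 0.571 and 0.211 CPM. It had 0.205 and 0 CPM in rpn10-1 and 0 in both rpn12a-1 libraries. ELI3-1, the related gene directly before it on the same strand, had 30.5, 30.4, 32.1 and 27.3 CPM at 3 h, within the 24.9 to 35.3 CPM of untreated Col-0. ELI3-1 fell at 24 h, to 11.8, 14.4, 15.9 and 19.1 CPM (-0.99, SE 0.19, adjusted p = 0.0017). The gene on the far side, AT4G38010 (pentatricopeptide repeat), had 0.832 to 2.84 CPM at 3 h, against 1.66 to 3.07 CPM untreated, and was not called. Of the 4 CAD genes in the interval, 1 was called lower at 3 h (9.24% of all genes) and 2 at 24 h (13.8% of all genes). None was called higher at 24 h. The rise of ELI3-2 at 3 h is not counted, because it became a member through that group. CAD9 was the other gene that fell, to 236, 272, 171 and 198 CPM at 3 h and 190, 193, 177 and 244 CPM at 24 h, against 334, 379, 301 and 312 CPM untreated. Its 3 h call (adjusted p = 0.045) was lost without any untreated library or without 3 h replicate 1, 3 or 4, and its 24 h call (0.016) without 24 h replicate 1 or 2.

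At 24 h there were 2 on/off members (1.7% of all genes), 1 in each direction. AT4G38560 (chr4:18029196-18031333), of the PEARLI 4 type and 1 of the 8 members before RPN10, had 2.42, 1.56, 2.99 and 1.58 CPM at 3 h and 7.4, 5.61, 4.19 and 2.95 CPM at 24 h, against 0.33, 0.615, 0 and 0.277 CPM untreated. Its levels rose in every MG132 library above every untreated one, with log2 fold changes of 2.88 (SE 0.49, adjusted p = 0.00079) at 3 h and 4.07 (SE 0.45, adjusted p = 1.3e-05) at 24 h. It had 0.548 and 0.372 CPM in rpn10-1 and 0.529 and 0.612 CPM in rpn12a-1 and was called in neither. The phosphatidylinositol synthase gene PIS2, which overlaps its end by 55 bases on the opposite strand, had 12.8 to 18.2 CPM at 24 h, against 15.0 to 17.2 CPM untreated (-0.05, SE 0.13, adjusted p = 0.83). AT4G38550, a second PEARLI 4 gene before it, rose less, to 33.5, 25.6, 17.96 and 14.5 CPM at 24 h, against 13.9, 13.0, 13.0 and 12.9 CPM untreated (0.75, SE 0.24, adjusted p = 0.031). That call was lost without untreated replicate 1, 2 or 3 or 24 h replicate 1 or 2. AT4G38550 shares 3130 bases with the opposite-strand transcript AT4G38552, and reads of the 2 cannot be told apart without strand.

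The uncharacterized gene AT4G37700 (chr4:17710182-17711031) went the other way. It had 0.591, 0.71, 0.998 and 1.3 CPM at 3 h and 0.214, 0.543, 0.063 and 0.351 CPM at 24 h, against 5.68, 3.18, 4.56 and 2.49 CPM untreated. Every MG132 library was below every untreated one, and the log2 fold change was -2.16 (SE 0.41, adjusted p = 0.0019) at 3 h and -3.77 (SE 0.46, adjusted p = 3.3e-05) at 24 h. The mutants had 1.78 and 3.44 CPM in rpn10-1 and 5.65 and 4.66 CPM in rpn12a-1, and neither was called. The transcription factor gene bZIP7 on one side of it had 1.39 to 2.54 CPM at 24 h, against 1.59 to 2.01 CPM untreated, and AT4G37690 on the other, a galactosyltransferase-like gene, had 0.381 to 0.858 CPM, against 0.346 to 1.64 CPM untreated. Neither was called at 24 h.

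**Figure D5:**
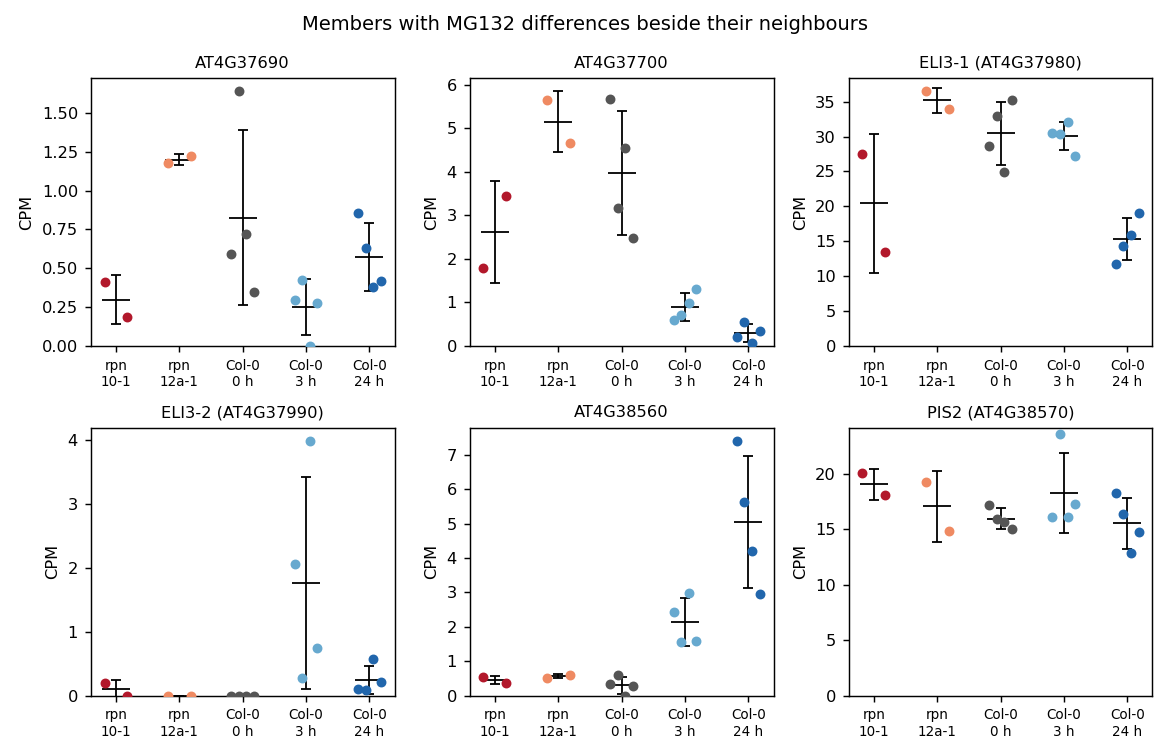
Level in CPM, in each library, of 3 members with on/off differences under MG132 (AT4G37700, ELI3-2 and AT4G38560) and 1 neighbour of each (AT4G37690, ELI3-1 and PIS2). Points are libraries, and bars are the mean and SD of 2 (mutants) or 4 (Col-0) libraries, with Col-0 at 0, 3 and 24 h of MG132. AT4G38560 reaches 2.95 to 7.4 CPM at 24 h beside PIS2 at 12.8 to 18.2 CPM, which stays near its untreated level.

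Other members rose under MG132 by more than 2-fold. AT4G39670, a glycolipid transfer protein gene, had 12.8, 10.4, 13.8 and 7.51 CPM at 3 h and 5.15, 4.62, 5.59 and 4.21 CPM at 24 h, against 2.11, 1.02, 2.02 and 1.18 CPM untreated. The log2 fold change was 2.77 (SE 0.34, adjusted p = 4.7e-05) at 3 h and 1.6 (SE 0.34, adjusted p = 0.0034) at 24 h. Its neighbour AGT2, an alanine:glyoxylate aminotransferase, was called at neither time. HCC2 had 12.6, 10.6, 7.49 and 9.46 CPM at 3 h and 15.4, 13.6, 14.4 and 12.1 CPM at 24 h, all above the untreated 4.01 to 4.51 CPM (1.26, SE 0.14, adjusted p = 2e-05 and 1.73, SE 0.14, adjusted p = 4.8e-07). AT4G37900 had 3.78, 2.27, 5.82 and 6.31 CPM at 3 h and 5.79, 4.71, 6.35 and 3.93 CPM at 24 h, and its log2 fold change was 1.35 (SE 0.27, adjusted p = 0.0025) and 1.57 (SE 0.26, adjusted p = 0.00048). The class III peroxidase gene AT4G37530 rose at 24 h to 34.3, 27.3, 28.4 and 19.9 CPM, against 9.7, 8.71, 14.2 and 7.68 CPM untreated (1.42, SE 0.2, adjusted p = 0.00015). The peroxidase gene before it, AT4G37520, had 46.6 to 58.8 CPM at 24 h, against 19.5 to 50.5 CPM untreated (adjusted p = 0.049). That call was lost without untreated replicate 1, 2 or 4 or 24 h replicate 1, 2 or 3. It was also lost without the set term (0.075) and with a replicate block (0.065). Within the libraries with the note the log2 fold change of AT4G37520 was 0.35 (adjusted p = 0.27), and within those without it 1.04 (adjusted p = 0.017). At 3 h AT4G37530 had 6.15 to 10.7 CPM and was not called. The hydroxyproline-rich gene AT4G38080 had 50.1, 115, 48.2 and 36.7 CPM at 24 h, against 24.6, 30.9, 8.53 and 9.34 CPM untreated (1.89, SE 0.34, adjusted p = 0.00087). AT4G38780, which resembles the splicing factor PRP8, had 5.43, 3.98, 17.8 and 16.9 CPM at 3 h and 14.9, 13.9, 17.6 and 11.6 CPM at 24 h, against 3.04, 2.36, 3.54 and 3.94 CPM untreated. It was called at both times (1.63, SE 0.31, and 2.22, SE 0.31), and at 3 h the libraries with the note were far higher than the others (within those without it, adjusted p = 0.11). Reads could be shared with a close copy elsewhere, so its level is uncertain.

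Other members fell under MG132. BT5 had 5.02, 4.68, 5.99 and 7.79 CPM at 3 h and 8.04, 9.33, 14.9 and 12.8 CPM at 24 h, against 25.5, 27.9, 17.4 and 16.4 CPM untreated (-1.9, SE 0.23, adjusted p = 4.9e-05 and -0.96, SE 0.22, adjusted p = 0.0053). EXLA2, an expansin-like cell wall protein, had 8.86, 11.5, 11.5 and 11.8 CPM at 3 h and 10.1, 11.9, 13.0 and 15.4 CPM at 24 h, against 25.3, 20.4, 26.0 and 24.9 CPM untreated. Its log2 fold change was -1.16 (SE 0.14, adjusted p = 5e-05) and -0.95 (SE 0.14, adjusted p = 0.00018). NPY5, of a family with roles in auxin-dependent organ formation, had 33.9 to 42.9 CPM at 3 h and 44.5 to 51.3 CPM at 24 h, against 69.0 to 76.4 CPM untreated. AT4G38950, of the kinesin-type microtubule motors, had 42.1, 39.9, 32.4 and 28.5 CPM at 3 h, against 63.7, 75.0, 64.2 and 73.3 CPM untreated (-0.97, SE 0.19, adjusted p = 0.0027). NdhM, a subunit of the chloroplast NDH complex, had 24.1, 18.2, 14.8 and 14.3 CPM at 3 h, against 35.3, 58.8, 42.9 and 44.3 CPM untreated (-1.35, SE 0.17, adjusted p = 7.9e-05). ACS8, an enzyme of ethylene synthesis, had 0.107, 0.272, 0.317 and 0.14 CPM at 24 h, against 0.99, 1.84, 0.723 and 2.01 CPM untreated (-2.64, SE 0.58, adjusted p = 0.0042). The bHLH gene AT4G37850 had 0.107, 0.362, 0.317 and 1.05 CPM at 24 h, against 2.57, 1.84, 3.62 and 1.38 CPM untreated (-2.26, SE 0.53, adjusted p = 0.0058). Summed markers of shoot and photosynthesis were at 13638 to 18882 CPM at 24 h and 24834 to 37874 CPM untreated.

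Tandem families were counted as lists, beside 9.24% of all genes called lower at 3 h, 13.8% at 24 h and 11.5% in rpn10-1. Of the 3 measured members of the SAUR array, whose products promote cell expansion, none was higher and 3 were lower at 3 h (median log2 fold change -0.91, against -0.01 over all genes), and 2 were lower at 24 h (median -0.8, against -0.03). AT4G38860 had 19.0, 23.7, 9.48 and 11.9 CPM at 3 h, against 25.3, 28.2, 28.9 and 36.1 CPM untreated. AT4G38840 had 27.1 and 39.6 CPM at 3 h in libraries without the note and 10.5 and 10.5 CPM in those with it, against 34.5 and 45.8 CPM and 31.1 and 37.8 CPM untreated in the same sets. Within the libraries without the note neither was called at 3 h (adjusted p = 0.39 for AT4G38860 and 0.53 for AT4G38840), and within those with it both were (0.00067 and 9.2e-05). The 3 h call of SAUR15 (adjusted p = 0.043) was lost with a block for the replicate number (0.066), without untreated replicate 2, 3 or 4 and without 3 h replicate 1, 3 or 4. The 3 h calls of AT4G38840 and AT4G38860 were also lost without 3 h replicate 4, and that of AT4G38840 without replicate 3. At 24 h the AT4G38860 call was lost without untreated replicate 4 or 24 h replicate 1 or 3. In rpn10-1, 1 SAUR gene was called lower, SAUR15 at 2.05 and 2.51 CPM against 3.43 to 5.23 CPM untreated (adjusted p = 0.046), a call lost without either rpn10-1 library or without untreated replicate 2, 3 or 4. None was called in rpn12a-1. Of the 3 measured CYP96A cytochrome P450 genes, 1 was called lower in rpn10-1 (CYP96A12, 11.4 and 19.4 CPM against 20.3 to 30.8 CPM untreated, adjusted p = 0.022, and 0.26 without rpn10-1 replicate 1 or 0.077 without untreated replicate 2) and none elsewhere. The 3 subunit genes of the vacuolar proton pump were called in no comparison, VHA-A3 for example with 193 and 196 CPM in rpn10-1 and 266 and 261 CPM in rpn12a-1, against 208 to 281 CPM in untreated Col-0. Of the 6 genes with ubiquitin or proteasome functions in the list, RPN10 alone was called, in every comparison. The transcription factor list was drawn by words in the reference descriptions and does not hold all such genes of the interval. Among others it lacks bZIP7, AT4G38340, AT4G37850, called lower at 24 h, and the LOB domain gene LBD39, called in rpn10-1 and at 24 h. It holds the RING finger gene EDA40, also in the ubiquitin list. Of its 10 genes, none was called higher. Called lower were 2 in rpn10-1, 1 in rpn12a-1, 4 at 3 h and 2 at 24 h. Of all genes, 11.5%, 2.26%, 9.24% and 13.8% were called lower in that order. Both measured B-box genes were among the listed genes called lower, BBX19 at 3 h and BZS1 in rpn10-1 and at 24 h. The BBX19 call was lost without untreated replicate 3. The 24 h call of BZS1 (adjusted p = 0.039) was lost without untreated replicate 1, 2 or 3 or 24 h replicate 1, 2 or 3, and within the libraries with the note (0.75). The 1 measured cellulase of the GH9 family, GH9B18, was called lower in rpn10-1 at 0.958 and 1.12 CPM, against 1.66 to 2.97 CPM untreated (adjusted p of 0.088 without rpn10-1 replicate 1). Of the 2 measured genes of the aminotransferase and transpeptidase run, GGT1 in rpn12a-1 was the one called against untreated Col-0.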

How the data were processed

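Each library's deposited file gives the authors' read counts by gene, not normalized. The submitters' processing notes name Trimmomatic, TopHat, Bowtie2, HTSeq, edgeR and TAIR10, without versions. The sources used here do not say how strand and reads with several matches were handled. The library kit does not mark strand, per the labels' protocols, and 61 of 215 members overlap another annotated gene, so their reads can be mixed. The files hold no coordinates. Names, coordinates and sequences come from RefSeq TAIR10.1, in which 32823 of 33602 identifiers matched.

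Counts were fitted in edgeR 4.0.16 (R 4.3.3) over all 16 libraries with group and library set as terms, after filterByExpr (21205 genes) and TMM scaling. The quasi-likelihood F-test was used, two-sided, with Benjamini-Hochberg adjustment over all genes and calls at 0.05. The SE is the absolute log2 fold change over the square root of F and is approximate near 0. Floors of 3 counts and exact intervals cover counting error only. No pair of replicates held identical values or agreed within sampling noise. The method was tested on simulated counts with 100 genes changed per fold. Of 2-fold changes, 48% were recovered in rpn10-1, 45% in rpn12a-1, 77% at 3 h and 76% at 24 h. Of 4-fold changes, 93%, 92%, 98% and 99% were recovered in that order. A member not called in a mutant can therefore still differ 2-fold. Of the 215 members, 3 (AT4G37620, ELI3-2 and AT4G39360) reached 10 counts in libraries of 1 group only.

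The members, lists and the rule for named genes were chosen with earlier results of these data known. Named genes are RPN10 and 8 members on each side, on/off members with their uncalled neighbours, up to 8 rises and falls per comparison among called members without overlap and with a higher mean of 1 CPM or more, and up to 3 per list. ATRER1A, AT4G39200, AT4G37520, MTN1 and PLAT1 were added after their values were seen. Blocks are 25 members or 100 genes of chromosome 4 in id order.

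Replicate numbers are shared between groups. Same-numbered untreated and 3 h libraries deviated together (r = 0.329, 0.467, 0.227 and 0.496). The main fit did not pair them, and a block for the replicate number was fitted only as an alternative. Libraries of the same set with different numbers correlated about as much (r = 0.356, 0.446, 0.437 and 0.394), so number and library set cannot be told apart. Alternatives were no set term, a replicate block, other size factors, DESeq2 1.42.0, no low-count filter, only the groups compared, each library set alone, each replicate left out, and on/off limits of 4-fold and 16-fold.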

Additional observations from a re-analysis of the deposited data

Results flagged for a closer look

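In groups of 4 libraries, 14 of 213 sets of values held a library far from the other 3, where chance flags about 1 in 20. In untreated Col-0, replicate 4 stood apart for APL3 (AT4G39210), at 28.4 CPM beside 42.7 to 43.8 CPM, and for bZIP7 (AT4G37730), at 2.01 CPM beside 1.59 to 1.65 CPM. Replicate 2 had 134 CPM of KAK (AT4G38600) beside 193 to 205 CPM. Replicate 1 had 13.9 CPM of AT4G38550 beside 12.9 to 13.0 CPM and 4.29 CPM of CYP96A11 (AT4G39500) beside 2.96 to 3.18 CPM.

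At 3 h of MG132, RPN10 (AT4G38630) had 354 CPM in replicate 3 beside 296 to 300 CPM. EXLA2 (AT4G38400) had 8.86 CPM in replicate 1 beside 11.5 to 11.8 CPM. In replicate 2, PIS2 (AT4G38570) had 23.6 CPM beside 16.1 to 17.3 CPM, and AT4G38660 had 48.4 CPM beside 37.3 to 38.9 CPM. At 24 h, CYCD5;1 (AT4G37630) had 4.35 CPM in replicate 2 beside 5.65 to 5.9 CPM, and HAT22 (AT4G37790) had 32.2 CPM in replicate 1 beside 27.5 to 28.2 CPM. AT4G39360 had 0.571 CPM in replicate 3 beside 0.181 to 0.214 CPM. In replicate 4, the non-coding AT4G38932 had 26.8 CPM beside 19.2 to 19.4 CPM, and CYP96A11 (AT4G39500) had 4.21 CPM beside 1.09 to 1.29 CPM.

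The effects of the mutants differed by edgeR's direct test of rpn10-1 against rpn12a-1 for 8 members. The log2 differences (SE, adjusted p) were -3.97 (0.22, 5.5e-08) for RPN10 (AT4G38630), -1.05 (0.21, 0.0098) for HHP4 (AT4G37680), -2.85 (0.72, 0.03) for AT4G37690 and 1.67 (0.47, 0.049) for AT4G38340. They were -0.96 (0.26, 0.038) for ROC1 (AT4G38740), 2.54 (0.51, 0.0093) for AT4G38780, -0.75 (0.2, 0.038) for MTN1 (AT4G38800) and -1.03 (0.22, 0.012) for GGT1 (AT4G39640). HHP4 averaged 16.2 CPM in rpn10-1 and 18.4 CPM in rpn12a-1, and ROC1 averaged 123 CPM in rpn10-1 and 148 CPM in rpn12a-1, so their levels were 1.14-fold and 1.21-fold apart. AT4G37690 had 0.411 and 0.186 CPM in rpn10-1, against 1.18 and 1.22 CPM in rpn12a-1, and AT4G38780 had 6.91 and 6.24 CPM in rpn10-1, against 1.88 and 1.93 CPM in rpn12a-1. These libraries belong to different sets, and without the set term only RPN10 and GGT1 of these 8 were called.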

How the results depend on the processing

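Among the members named by the rule, no called value reversed under any alternative, and RPN10 stayed called in all of them. For PLAT1, added later, the log2 fold change in rpn12a-1 was -0.0 with the replicate block. Over the named members, 1220 called values kept their call and 274 lost it; 3185 uncalled values stayed uncalled and 113 gained a call. The cause was not tested. Depth limits AT4G37620, with 40 untreated counts, and ELI3-2, with 69 counts at 3 h. Without the set term, 25 members and 2735 genes were called in rpn10-1, and 3 and 782 between the mutants. Without the low-count filter, 23 and 1983 were called in rpn12a-1 and 19 and 3025 between the mutants. DESeq2 called 13 and 2137 between the mutants, and the 4 mutant libraries alone gave 1 and 261. Within libraries without the note, 14 and 1228 were called at 3 h, and within those with it, 31 and 3633 at 24 h. A replicate block in place of the set called 2124 genes in rpn12a-1 and 4 members between the mutants. In rpn10-1, at 3 h and at 24 h it called 31, 45 and 52 members, within 1.5 times of the main counts. Same-numbered 24 h and rpn10-1 libraries share the library set with the untreated ones. The rpn12a-1 libraries share only a number with untreated replicates 1 and 2, which are in the other set.

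Leaving out 1 replicate gave 18 to 37 members and 2235 to 4755 genes in rpn10-1, and 4 to 10 and 495 to 897 in rpn12a-1. It gave 38 to 50 and 2666 to 3533 at 3 h, 39 to 71 and 3852 to 6317 at 24 h, and 2 to 11 and 478 to 1773 between the mutants. On/off members then numbered 1 to 3 in rpn10-1, 1 in rpn12a-1, 1 to 2 at 3 h, 2 to 3 at 24 h and 1 to 2 between the mutants. With a 4-fold limit there were 4, 2, 5, 6 and 3 on/off members in that order, and with 16-fold 1 at 24 h and 0 between the mutants.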
